A study of Canis lupus familiaris with 21 samples.

Results

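The 7 mast cell genes KIT, MS4A2, CPA3, HDC, FCER1A, GATA2 and HPGDS were followed through the regression of canine cutaneous histiocytoma, out of 21399 genes in the count tables. They were chosen by name as genes that mark mast cells, without use of their measured values but with earlier results of these data known. Canine cutaneous histiocytoma is a benign skin tumor of Langerhans cell origin that mostly arises in young dogs and that regresses spontaneously while lymphocytes invade it. RNA was taken from 21 formalin-fixed, paraffin-embedded samples of privately owned dogs of several breeds, and the 3′ ends of its messenger RNA were sequenced. Group 1 held 5 tumor cell-rich samples of regression stage 1, from dogs aged 0.5 to 5 years with 1 age not given. Group 2a held 5 tumor cell-rich samples of stage 2, from dogs aged 0.6 to 3 years. Group 2b held 6 lymphocyte-rich samples of stage 2, from 17 dogs aged 0.3 to 6 years with 1 age not given, of which 4 samples were pools of 3 to 4 dogs and 2 came from a single dog. Group 3 held 5 lymphocyte-rich samples of stage 3, from dogs aged 1.5 to 9 years. No treatment is given for any group, and no normal skin was among the samples, so levels could be compared only between tumor areas.

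Mast cells are tissue-resident immune cells that carry immunoglobulin E on a high-affinity receptor and release stored histamine, proteases and lipid mediators when that receptor is crosslinked. They mature under stem cell factor, the ligand of the receptor tyrosine kinase KIT. Dog skin holds resident mast cells, mainly in the dermis around vessels and hair follicles, and tumors of mast cells are common in the skin of dogs.

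Each library held between 2113393 and 3559404 counted reads, and values below are normalized counts, that is, read counts divided by the size factor of the sample. At this depth 3 reads corresponded to between 2.36 and 3.51 normalized counts, and a gene without a read in a sample may still have been present up to about that level (counting error only). The 5 tumor markers of histiocytoma examined summed to between 2246 and 4885 normalized counts in every sample. Most of this sum was ITGB2, with medians of 2253, 2446, 2429 and 2231 in groups 1, 2a, 2b and 3. In the same order CDH1 had medians of 194.7, 68.8, 43.5 and 84.4, and LYZ of 4.55, 42.2, 164.8 and 14.15. AIF1 (386, 577, 597 and 577) and DLA-DRA (32.1, 134.5, 131.7 and 78.3) had their lowest median in group 1. The sum therefore does not measure tumor cell content. The 7 T cell markers in the tables summed to between 430.9 and 2010 in groups 1 and 2a and to between 2432 and 3925 in groups 2b and 3. By median, CD3E, CD3D, CD3G, CD2 and CD5 were higher in groups 2b and 3 than in groups 1 and 2a. GATA3 went the other way, with medians of 440, 417.5, 241 and 348 in groups 1, 2a, 2b and 3. CCR4 was at 0 in 20 of 21 samples. RNA quality, given as DV200 (the percentage of RNA fragments over a fixed length), was lowest in group 1 at 68.5% ± 2.46 (SD, n = 5). Groups 2a, 2b and 3 had 73.7% ± 2.69 (n = 5), 74.6% ± 1.73 (n = 6) and 73.2% ± 2.09 (n = 5), respectively. The DV200 of 1 sample of group 3 differs between the sources used here, and the value in the labels was taken.

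The 7 genes were sparsely covered. FCER1A had 1681 reads over all 21 samples and HPGDS had 821. KIT had 357 reads, CPA3 246, MS4A2 237 and GATA2 103, whereas HDC had 33 reads and was above 3 reads in 2 of 21 samples. FCER1A was above 3 reads in 21 samples, HPGDS in 19, MS4A2 in 15, KIT in 13, GATA2 in 10 and CPA3 in 9. In the genome build UU_Cfam_GSD_1.0 the genes lie on 7 different chromosomes: KIT on chromosome 13 (47870472 to 47952050), MS4A2 on chromosome 21 (51392625 to 51399386), CPA3 on chromosome 23 (44237426 to 44266751), HDC on chromosome 30 (16491552 to 16513689), FCER1A on chromosome 38 (23556483 to 23561775), GATA2 on chromosome 20 (2500417 to 2509217) and HPGDS on chromosome 32 (22730052 to 22754426). Reads of this library type come from the 3′ end of the last exon, so levels were compared between samples for 1 gene at a time and not between genes.

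**Figure D1:**
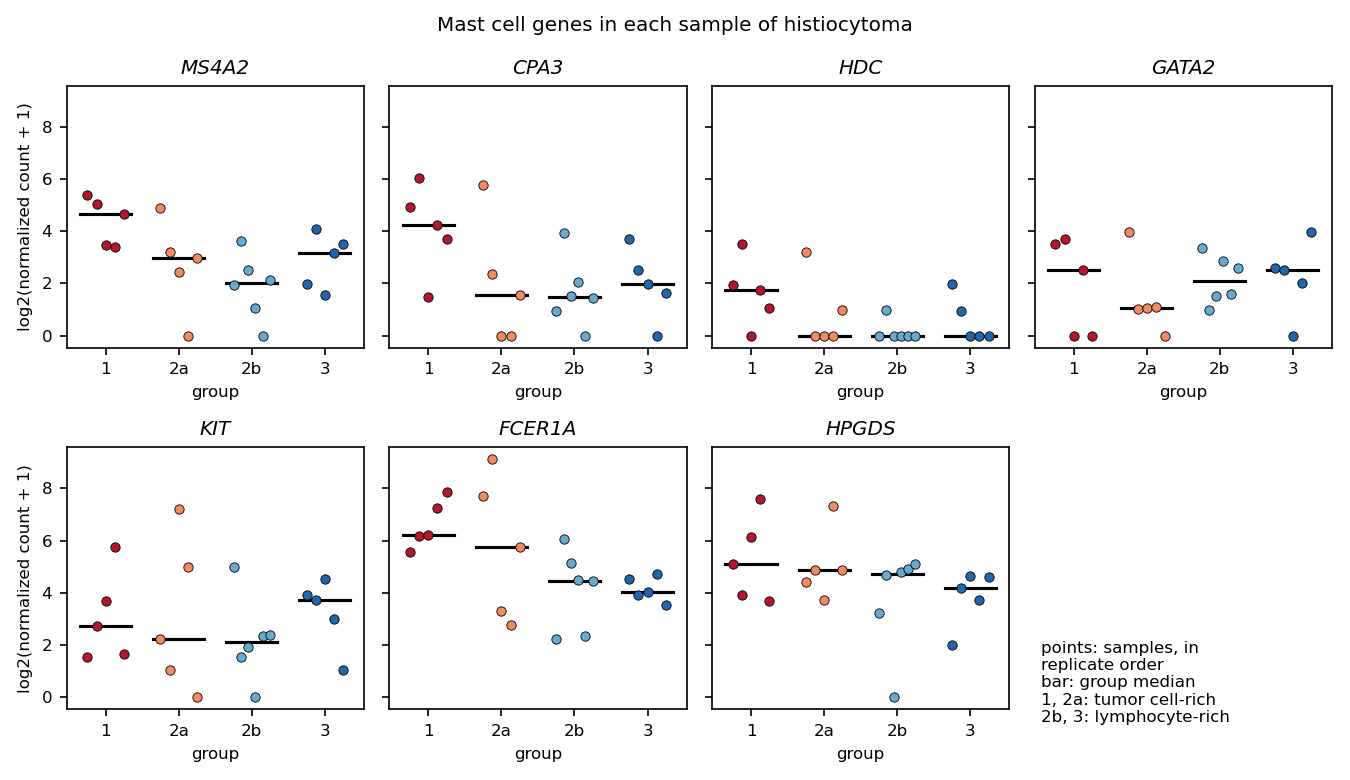
Level of each of the 7 mast cell genes in each sample, as log2(normalized count + 1) on the y axis and by group on the x axis; points are samples in replicate order and bars are group medians. MS4A2, CPA3 and FCER1A had their highest median in group 1, and FCER1A of group 3 lay below all 5 samples of group 1.

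The receptor for immunoglobulin E was represented by FCER1A, its ligand-binding alpha chain, and MS4A2, its signal-amplifying beta chain. FCER1A fell from tumor cell-rich stage 1 to lymphocyte-rich stage 3, and it was the only one of the 7 genes to pass both thresholds in any of the 4 main comparisons. FCER1A measured 46.3, 72.1, 73.8, 150.4 and 234 normalized counts in replicates 1 to 5 of group 1. It measured 208, 552, 8.89, 5.85 and 53.3 in group 2a. In group 2b the lowest value was 3.73, the median 21.1 and the highest 66.1, and in group 3 the values were 22.0, 14.1, 15.5, 25.2 and 10.5. Every sample of group 3 was thus below every sample of group 1, while group 2a held 1 sample above all of group 1 and 2 samples below all of group 3. The means of groups 1 and 2a were 115 ± 76.9 and 166 ± 231 (SD, n = 5 each), and those of groups 2b and 3 were 25.1 ± 23.2 (n = 6) and 17.5 ± 5.99 (n = 5).

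FCER1A had an edgeR log2 fold change of -2.71 between groups 3 and 1 (SE 0.449, 95% confidence interval -3.68 to -1.74, adjusted p = 0.00399). Of all 11470 genes tested in that comparison, 8.33% passed both thresholds (adjusted p up to 0.05 and a log2 fold change of 1 or more, up or down) and 3.41% passed them with a lower level in group 3. Genes whose group 3 samples all lay below all group 1 samples made up 5.83% of those tested. The exact permutation test of FCER1A gave p = 0.00794, the smallest value 5 against 5 samples allow, which after adjustment over all genes was 0.0668. That was the smallest adjusted p of any gene in this comparison, so the adjusted permutation test could not have called FCER1A at 0.05. The call was held in each of 10 fits that left out 1 sample, with log2 fold changes between -2.91 and -2.29. With DV200 as a covariate the log2 fold change was -1.77 and the call was lost (edgeR adjusted p = 0.163), DV200 being lower in group 1 than in group 3. The summed T cell markers also moved with this difference, from 430.9 to 2010 in group 1 to 2873 to 3925 in group 3. Within that sum GATA3 went the other way, with medians of 440 in group 1 and 348 in group 3. The part of these markers in the FCER1A difference was not tested. In bulk samples of this kind, fewer cells of a type and less RNA per cell cannot be told apart.

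FCER1A is also made by some dendritic cells and basophils. The 6 Langerhans cell and dendritic cell entries in the tables summed to 1013 to 2184 normalized counts in group 1 and 1129 to 2076 in group 2a, against 1782 to 2002 for group 2b and 1159 to 1798 for group 3. The members of this sum did not move alike. IRF8 had medians of 185, 194, 850 and 455 in groups 1, 2a, 2b and 3. In the same order the medians were 594, 801, 570 and 495 for CD86 and 506, 524, 443.5 and 467 for ITGAX. Those of EPCAM were 30.7, 12.2, 21.9 and 32.5. CD1A6 was at 0 in 18 of 21 samples, and CD207, which encodes langerin, was not analysed here. FLT3, the receptor of a dendritic cell growth factor, had lower medians in groups 2b and 3 (4.02 and 4.19) than in groups 1 and 2a (14.2 and 19.4). FLT3 was highest in group 2a replicate 2 at 72.9 normalized counts, the sample in which FCER1A was also highest at 552. The part of these cells in the FCER1A level was not tested.

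Between groups 2b and 2a, FCER1A had an edgeR log2 fold change of -2.72 (SE 0.949, 95% confidence interval -4.76 to -0.68, adjusted p = 0.0656) and was not called, and the exact permutation test gave p = 0.251. Without group 2a replicate 3 its adjusted p was 0.0262 and without group 2a replicate 4 it was 0.0330. Without group 2a replicate 2, the sample with the most FCER1A, the log2 fold change was -1.48 (edgeR adjusted p = 0.305). Between groups 2a and 1 its log2 fold change was 0.54 (SE 0.925, edgeR adjusted p = 0.813), and without group 2a replicate 2 it was -0.71. It was -0.52 between groups 3 and 2b (SE 0.599, edgeR adjusted p = 0.761). Group 2b was also set against group 1 on log2(normalized count + 1), where FCER1A differed by -2.50 (exact permutation test, p = 0.00866, adjusted over all genes 0.0361) with 5 of 6 samples of group 2b below all of group 1. In that pair of groups the adjusted p was 0.05 or less for 27.4% of 11652 genes. The pair differs in both stage and area, and DV200 was not taken as a covariate in it.

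MS4A2 had its highest median in group 1, as FCER1A did, but its lowest in group 2b. MS4A2 measured 40.6, 31.8, 10.02, 9.45 and 24.0 normalized counts in group 1 and 28.8, 8.34, 4.44, 0 and 6.78 in group 2a. In group 2b its lowest value was 0, its median 3.09 and its highest 11.5, and in group 3 it measured 3.00, 16.0, 1.94, 8.06 and 10.5. Replicates 1, 2 and 5 of group 1 and replicate 1 of group 2a were the 4 samples above 20 normalized counts, and the other 4 samples of group 2a were below all of group 1. The means were 23.2 ± 13.6 in group 1 and 9.66 ± 11.1 in group 2a, against 3.90 ± 4.07 (n = 6) in group 2b and 7.90 ± 5.75 in group 3 (SD, n = 5 elsewhere). The edgeR log2 fold change was -1.22 between groups 2a and 1 (SE 0.750, adjusted p = 0.425) and -1.53 between groups 3 and 1 (SE 0.619, 95% confidence interval -2.87 to -0.19, unadjusted p = 0.0281, adjusted p = 0.117), so neither was called. Group 2b differed from group 1 by -2.51 on log2(normalized count + 1), with 5 of 6 samples below all of group 1 (exact permutation test, p = 0.00866, adjusted over all genes 0.0361). In that pair, which differs in both stage and area, 27.4% of 11652 genes had an adjusted p of 0.05 or less. DV200 was higher in group 2b than in group 1 (74.6% against 68.5%) and was not taken as a covariate there. For the neighbours in the order of medians, group 3 after group 1, group 2a after group 3 and group 2b after group 2a, the exact permutation test gave p = 0.0556, 0.873 and 0.385.

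The granule and mediator enzymes were CPA3, the mast cell carboxypeptidase, HDC, which makes histamine from histidine, and HPGDS, the hematopoietic prostaglandin D synthase. CPA3 measured 29.3, 65.5, 1.82, 18.1 and 12.0 normalized counts in group 1. It measured 53.8, 4.17, 0, 0 and 1.94 in group 2a, and between 0 and 14.4 with a median of 1.77 in group 2b. Group 3 gave 12.0, 4.72, 2.91, 0 and 2.09. Group 1 replicate 2 and group 2a replicate 1 stood highest, and the other samples of group 2a and all of groups 2b and 3 were at or below 14.4, so that each of these groups overlapped with group 1. The log2 fold change of CPA3 was -2.51 between groups 3 and 1 (SE 0.894, 95% confidence interval -4.45 to -0.57, edgeR adjusted p = 0.0803) and was not called. Without group 1 replicate 3, the group 1 sample with the lowest CPA3, its log2 fold change was -2.82 and its edgeR adjusted p was 0.0414. Between groups 2a and 1 the log2 fold change was -1.05 (SE 1.13, edgeR adjusted p = 0.681). Group 2b differed from group 1 by -2.44 on log2(normalized count + 1) (exact permutation test, p = 0.0303, adjusted over all genes 0.0854).

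HDC was at 0 in 12 of 21 samples. It measured 2.83, 10.3, 0, 2.36 and 1.09 normalized counts in group 1, 8.35, 0, 0, 0 and 0.968 in group 2a, and 3.00, 0.943, 0, 0 and 0 in group 3. In group 2b 1 sample had 0.958 and the other 5 were at 0. The samples with the most HDC, group 1 replicate 2 and group 2a replicate 1, were those with the most CPA3. HDC passed the count filter in none of the comparisons, and no fold change is given because most of its values were within 3 reads. Without adjustment, the exact permutation test gave p = 0.0281 between groups 2b and 1, a pair in which 41.2% of genes reached an unadjusted p of at most 0.05.

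HPGDS is made by mast cells and also by some macrophages and T helper cells. It measured 33.1, 14.0, 70.1, 194 and 12.0 normalized counts in group 1 and 20.4, 28.1, 12.2, 161 and 28.1 in group 2a. In group 2b it ranged from 0 to 33.7 with a median of 25.7, and in group 3 it measured 3.00, 17.0, 24.2, 12.1 and 23.0. Replicate 4 of group 1 and replicate 4 of group 2a were far above the rest, and all 4 groups overlapped. The means of groups 1 and 2a were 64.7 ± 76.2 and 50.0 ± 62.6 (SD, n = 5 each), and those of groups 2b and 3 were 20.4 ± 13.2 (n = 6) and 15.9 ± 8.70 (n = 5). The edgeR log2 fold change was -2.03 between groups 3 and 1 (SE 0.750, adjusted p = 0.0899), -1.28 between groups 2b and 2a (SE 0.734, adjusted p = 0.266), -0.38 between groups 2a and 1 (SE 0.826, adjusted p = 0.854) and -0.36 between groups 3 and 2b (SE 0.682, adjusted p = 0.868). The comparison of groups 3 and 2b held neither of the 2 high samples. The other values shifted when 1 of these samples was left out. Without group 1 replicate 4 the log2 fold change of HPGDS was -1.03 between groups 3 and 1 and 0.61 between groups 2a and 1, and without group 2a replicate 4 it was -0.13 between groups 2b and 2a and -1.53 between groups 2a and 1. The exact permutation test gave p = 0.818, 0.335 and 0.978 for the neighbours in the order of medians, group 2a after group 1, group 2b after group 2a and group 3 after group 2b. The 7 macrophage markers summed to 2251 to 9820 normalized counts in group 1 and 5270 to 10230 in group 3. By median, C1QA, C1QB, C1QC, CD163 and CD14 were higher in group 3 than in group 1. MRC1 (141 against 239) and CSF1R (1162 against 1426) were lower in group 3. The part of these markers in the HPGDS level was not tested.

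KIT encodes the receptor of stem cell factor, on which mast cells depend for growth and survival. KIT measured 1.89, 5.62, 11.8, 52.7 and 2.19 normalized counts in group 1 and 3.71, 1.04, 145.5, 30.4 and 0 in group 2a. It ranged from 0 to 30.8 with a median of 3.41 in group 2b, and in group 3 it measured 14.0, 12.3, 22.3, 7.05 and 1.05. Unlike the genes above, KIT had its highest median in group 3, at 12.3, whereas its highest single values were in group 2a replicate 3, group 1 replicate 4 and group 2b replicate 1. Mean KIT was 14.9 ± 21.6 for group 1 and 36.1 ± 62.4 for group 2a (SD, n = 5 each), and 7.29 ± 11.6 (n = 6) for group 2b and 11.3 ± 7.95 (n = 5) for group 3, so the SD exceeded the mean in 3 of these 4 groups. The edgeR log2 fold change of KIT between groups 3 and 1 was -0.40 (SE 0.882, 95% confidence interval -2.32 to 1.51, adjusted p = 0.810). The sign of that difference was not held, since limma on log2(normalized count + 1) gave 0.17, while edgeR with DV200 as a covariate gave -2.72 (adjusted p = 0.323). The exact permutation test of neighbours in the order of medians, group 1 after group 3, group 2a after group 1 and group 2b after group 2a, gave p = 0.857, 0.984 and 0.552.

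Melanocytes of the skin also make KIT. Of 6 melanocyte markers, PMEL and SOX10 were in the tables, and each was at 0 in 14 of 21 samples. Their sum was at most 3.74 normalized counts in group 1 and 3.33 in group 2a, and at most 3.37 and 10.7 in groups 2b and 3. In the 3 samples with the highest KIT the sum was 3.33 (group 2a replicate 3), 0 (group 1 replicate 4) and 0 (group 2b replicate 1). In group 2a replicate 3, the sample with the most KIT, MS4A2 was at 4.44 normalized counts and CPA3 and HDC were at 0.

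GATA2 encodes a zinc finger transcription factor of blood stem cells, mast cells and endothelium. It measured 10.4, 12.2, 0, 4.72 and 0 normalized counts in group 1, 14.8, 1.04, 1.11, 1.17 and 0 in group 2a and 5.00, 4.72, 0, 3.02 and 14.7 in group 3. In group 2b its lowest value was 0.958, its median 3.53 and its highest 9.34. The groups overlapped throughout, with means of 5.46 ± 5.69, 3.63 ± 6.29, 4.26 ± 3.24 (n = 6) and 5.48 ± 5.50 (SD, n = 5 elsewhere) in groups 1, 2a, 2b and 3. GATA2 did not pass the count filter in any of the 4 comparisons, and the exact permutation test gave p = 0.833 between groups 3 and 1, p = 0.929 between groups 3 and 2b and p = 0.342 between groups 2b and 2a. The 6 endothelial markers summed to 383.5 to 833.6 normalized counts in group 1 and 481.8 to 954.2 in group 2a, against 464.5 to 935.4 for group 2b and 519.4 to 1071 for group 3, and their part in the GATA2 level was not tested.

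**Figure D2:**
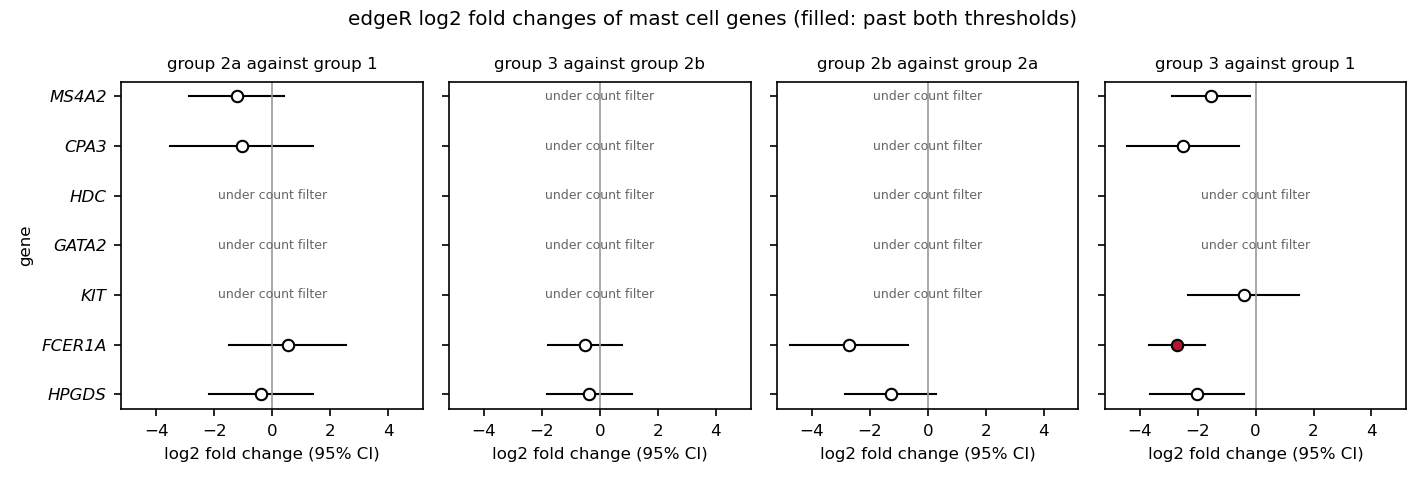
edgeR log2 fold change (x axis, with its 95% confidence interval) of each mast cell gene (y axis) in the 4 comparisons; a filled point passed both thresholds, and genes under the count filter carry no estimate. FCER1A between groups 3 and 1, at -2.71, is the only filled point.

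Counted over the 7 genes, the comparisons gave the following. Between groups 2a and 1, the tumor cell-rich areas of stage 2 and stage 1, 4 of 7 genes passed the count filter and 0 were called, where 0.393% of 11200 genes were called. Between groups 3 and 2b, the lymphocyte-rich areas of stage 3 and stage 2, 2 of 7 passed and 0 were called, against 0.0428% of 11685 genes. Between groups 2b and 2a, both of stage 2, 2 of 7 passed and 0 were called, against 9.55% of 11545 genes. Between groups 3 and 1, which differ in both stage and area, 5 of 7 passed and 1 was called lower, the FCER1A gene, against 8.33% of 11470 genes called and 3.41% called lower. In the same order, an unadjusted edgeR p under 0.05 was found for 0 of 4, 0 of 2, 1 of 2 and 4 of 5 genes that passed the filter. Over all genes tested, 2005 of 11200, 1527 of 11685, 3462 of 11545 and 3413 of 11470 had one. DESeq2, run on the same filtered genes, called 0 of 4, 0 of 2, 0 of 2 and 3 of 5 mast cell genes. It called 262, 44, 1265 and 1257 of all genes tested. The comparisons share samples and are not independent of each other.

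**Figure D3:**
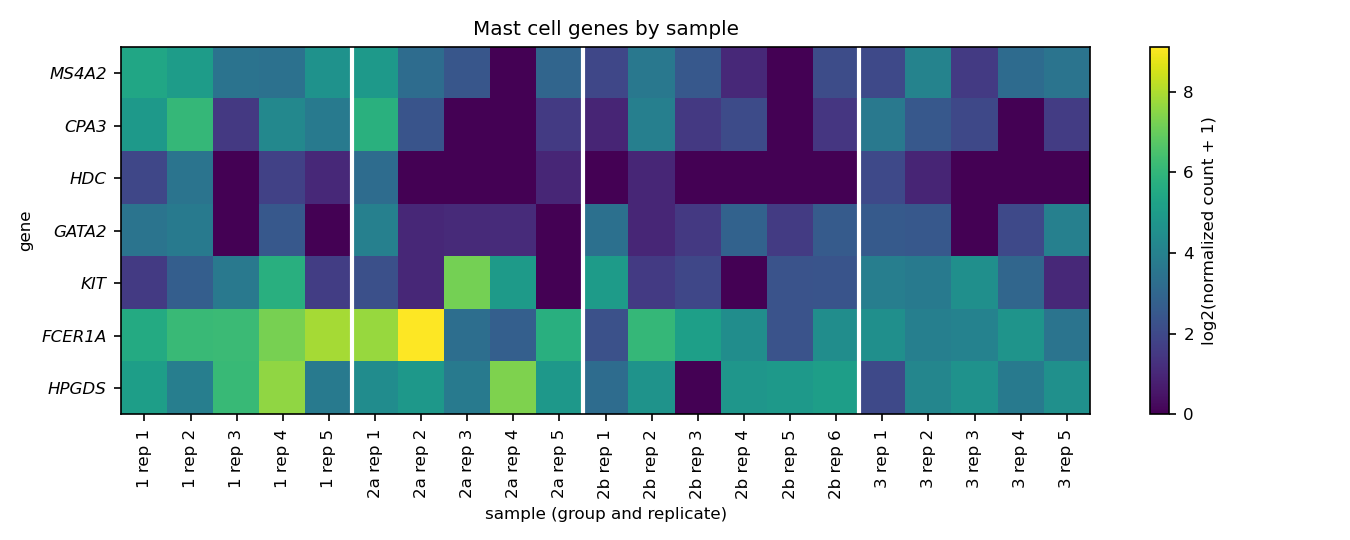
Level of the 7 mast cell genes (y axis) in the 21 samples (x axis, by group and replicate), as log2(normalized count + 1) in color, from 0 in dark to the highest value in yellow. MS4A2, CPA3, HDC and GATA2 were all high in group 1 replicate 2 and group 2a replicate 1, whereas KIT was highest in group 2a replicate 3, where CPA3 and HDC were at 0.

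Within groups the Pearson r between pairs of the 7 genes ran from -0.53 to 0.88. After the group mean was subtracted from log2(normalized count + 1), CPA3 and HDC went together over the 21 samples (Pearson r = 0.88, Spearman rho = 0.77, permutation p = 3e-05 and 0.00053, adjusted over 21 pairs 0.00063 and 0.011). Without the 2 samples farthest from the median of CPA3, group 1 replicate 3 and group 2a replicate 1, r was 0.78. This was the only one of the 21 pairs with an adjusted p of at most 0.05, and it rests on the 33 reads of HDC. MS4A2 and CPA3 had r = 0.63 and rho = 0.58 (permutation test, adjusted p = 0.12 and 0.15), and r was 0.54 without the 2 samples farthest from the median of MS4A2. FCER1A had r = 0.55 with MS4A2 and 0.56 with CPA3 (permutation test, adjusted p = 0.16 for both). Without the 2 samples farthest from the median of MS4A2, its r with MS4A2 was 0.32. GATA2 had r = 0.58 with HDC and 0.49 with CPA3, and MS4A2 had 0.49 with HDC (permutation test, adjusted p = 0.16 for each). KIT pointed the other way without passing the test, with r = -0.41 against MS4A2, -0.33 against CPA3 and -0.53 against FCER1A (permutation test, adjusted p = 0.27, 0.44 and 0.21). HPGDS had r = -0.41 with MS4A2 and -0.22 with CPA3, and neither passed.

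**Figure D4:**
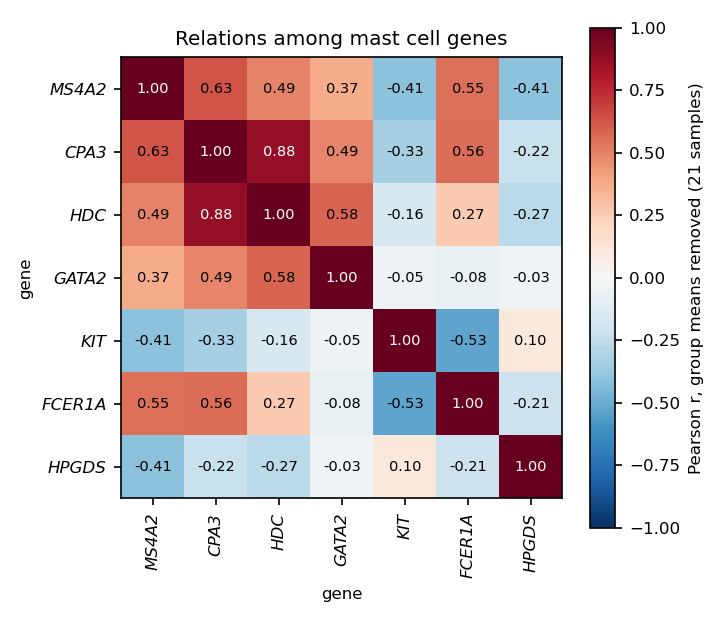
Pearson r between each pair of the 7 mast cell genes (both axes) over 21 samples, after each group mean was subtracted from log2(normalized count + 1). CPA3 and HDC, at 0.88, are the only pair with an adjusted permutation p of at most 0.05, and KIT has negative values with MS4A2, CPA3 and FCER1A.

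The sum of MS4A2, CPA3 and HDC shows how unevenly these transcripts were spread over samples of 1 group. It was highest in group 1 replicate 2 at 107.6 normalized counts, followed by group 2a replicate 1 at 90.9 and group 1 replicate 1 at 72.8. It was 0 in group 2a replicate 4 and in group 2b replicate 5. Group 2a thus held both 1 of the highest samples and 1 of those without a read of these genes.

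The levels of the 7 genes were set against 10 other measures, the summed markers of other cell types, over the 21 samples. None of these 70 relations had an adjusted permutation p of at most 0.05 (4 had an unadjusted p of r of at most 0.05, and the smallest adjusted p was 0.245). DV200 had r = 0.49 with KIT after group means were removed (permutation p = 0.0563, adjusted over 7 genes 0.394). Basophils share the immunoglobulin E receptor with mast cells, and of 6 eosinophil and basophil markers EPX and CCR3 were in the tables. Their sum was at most 0.936 and 1.86 normalized counts in groups 1 and 2a, and reached 34.5 and 21.2 in groups 2b and 3. In group 2b the sum was of EPX alone, and CCR3 was at 0 in 18 of 21 samples. The sum therefore gives no level of basophils apart from eosinophils.

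The genes most like the 7 were sought among 12499 genes by Pearson r over the 21 samples, again with group means removed, and are given as a description because the highest of many values were taken. The mean of 6 of the 7 genes, HDC being too sparse, was most like RAMP1 (r = 0.86), PNPLA3 (0.85), FAM110A (0.77), MAP3K6 (0.74) and TFAP2A (0.74). For single genes the most alike were RNASE4, THBS4 and COQ5 for MS4A2 (r between 0.83 and 0.85), RNH1, KCNQ1 and ANXA11 for CPA3 (0.79 to 0.88) and ADAP1, PARP8 and PITPNB for FCER1A (0.78 to 0.79). NENF, ASB1 and FRYL were most like KIT (0.82 to 0.83), WLS, HMG20B and MALL most like GATA2 (0.75 to 0.78), and SRRM1, RGS17 and LOC111092199 most like HPGDS (0.79 to 0.82).

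The wider mast cell program was read from 68 further genes in 5 lists, of which 53 were in the tables. Between groups 2a and 1, 35 of these passed the count filter and 0 were called, with a median log2 fold change of 0.06 against -0.02 over all genes tested. From group 2b to group 3, 38 passed and 0 were called, with medians of 0.01 and 0.01. Between groups 2b and 2a, 4 of 37 were called higher and 2 lower (medians 0.21 and -0.01), where 5.98% and 3.57% of all genes were. Between groups 3 and 1, 3 of 35 were called higher and 3 lower (medians 0.31 and -0.00), where 4.92% and 3.41% of all genes were.

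In the list of granule and mediator genes, 13 of 18 were in the tables, and the tryptase genes TPSAB1 and TPSB2 were not analysed here. ALOX5, the 5-lipoxygenase that starts leukotriene synthesis, fell between groups 2a and 2b from 207.5 ± 171 (SD, n = 5) to 7.83 ± 5.47 (n = 6) normalized counts, with an edgeR log2 fold change of -4.72 (SE 0.725, adjusted p = 0.000688). Between groups 1 and 3 it fell from 299 ± 133 to 14.8 ± 8.24 (edgeR log2 fold change -4.32, SE 0.442, adjusted p = 0.00054). ALOX5 is also made by macrophages, dendritic cells and granulocytes. HNMT, which inactivates histamine, was lower in group 3 than in group 1, at 64.1 ± 19.6 against 135 ± 34.9 normalized counts (edgeR log2 fold change -1.08, SE 0.259, adjusted p = 0.0188). The other genes of this list that passed the filter, 7 of 8 between groups 2b and 2a and 7 of 9 between groups 3 and 1, were not called.

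All 14 genes of immunoglobulin E receptor signaling were in the tables and 12 passed the filter. LAT, PLCG1 and FYN, an adaptor, a phospholipase and a kinase that also act below the T cell receptor, rose in both comparisons of lymphocyte-rich with tumor cell-rich areas. LAT rose from 55.8 ± 27.9 in group 2a to 306 ± 33.1 in group 2b and from 43.8 ± 43.4 in group 1 to 361.5 ± 35.5 in group 3 (edgeR log2 fold change 2.46 and 3.02, adjusted p = 0.000177 and 0.0092). PLCG1 rose by 1.48 and 1.65 and FYN by 1.20 and 1.19 on the log2 scale (edgeR adjusted p between 0.000178 and 0.0191). These genes went up with the summed T cell markers, whose part was not tested. The other 9 signaling genes tested were not called in either comparison.

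Of the transcription factors, IKZF2 was higher in group 2b than in group 2a (334 ± 113 against 108 ± 61.9 normalized counts, edgeR log2 fold change 1.63, adjusted p = 0.011). The T cell markers also summed higher in group 2b (2432 to 3585) than in group 2a (794 to 1558), and their part was not tested. LMO2, a partner of GATA factors, was lower in group 3 than in group 1 (196 ± 49.0 against 446.5 ± 226, log2 fold change -1.18, edgeR adjusted p = 0.0353). Of the further surface markers, ENPP3, which is carried by mast cells and basophils, was lower in group 2b than in group 2a (18.4 ± 24.6 against 83.9 ± 41.8, log2 fold change -2.18, edgeR adjusted p = 0.0239). The list with the KIT ligand and with cytokines and their receptors had 11 of 14 genes in the tables and 0 called in any of the 4 comparisons, with 5 or 6 tested in each.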

How the data were processed

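RNA of 21 samples was extracted from FFPE sections, and libraries were made with the QuantSeq 3′ FWD kit. Per the submitters' processing notes the authors used Cutadapt, STAR, featureCounts and DESeq2, with versions, strand setting and treatment of multi-mapping reads not given in the sources used here. The deposited raw counts per gene were whole numbers, and the deposited normalized counts (unit signal) were those counts divided by DESeq2 size factors (0.855 to 1.27). The tables also hold the authors' own comparisons, deposited as log2 fold changes, standard errors and p-values, which were not used. No column of an unknown sample was found. Gene positions came from RefSeq tables of UU_Cfam_GSD_1.0.

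Each sample's group came from its title. Raw counts were tested with edgeR 4.0.16 (R 4.3.3, quasi-likelihood test, TMM) on the groups compared, for genes with at least 10 counts in at least 5 samples, with Benjamini-Hochberg adjustment over all tested genes. A gene was called at an adjusted p of at most 0.05 and a log2 fold change of 1 or more, up or down, thresholds that follow the study's methods. Single genes were also compared by 2-sided exact permutation tests of mean log2(normalized count + 1), and correlations by 100000 permutations within groups (Python 3.11.15, scipy 1.17.1). The edgeR step was tested on simulated data. Alternatives were DESeq2 1.42.0, limma 3.58.1 with pseudocounts of 0.5, 1 and 5, other scalings and filters, all 4 groups in 1 fit, DV200 as a covariate, a replicate block, pooled or single-dog samples only, no threshold on the fold change, and leaving out each sample.

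The 7 genes were described in every comparison, with the 5 genes most like their mean and the 3 most like each gene. The genes and lists were chosen with earlier results of these data known. Replicates were separate tumors or pools, and all pairs differed beyond sampling noise. The confidence intervals come from the edgeR fits and rest on the spread between samples, whereas the floor of 3 reads covers counting error only. In group 2b 4 samples are pools, so their spread is not that of single dogs. Same-numbered samples were different dogs.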

Additional observations from a re-analysis of the deposited data

Results flagged for a closer look

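Dixon's criterion is met by chance in about 1 in 20 sets of normally distributed values. That rate does not hold for low, skewed counts with many zeros, so no excess over chance is read here. In 11 of 28 sets of values (7 genes in 4 groups) the highest sample stood apart from the other samples of its group by this criterion. In group 2a replicate 1 this held for 4 genes: MS4A2 at 28.8 normalized counts (next highest sample 8.34), CPA3 at 53.8 (4.17), HDC at 8.35 (0.968) and GATA2 at 14.8 (1.17). KIT stood apart in 3 groups, at 52.7 in group 1 replicate 4 (next 11.8), 145.5 in group 2a replicate 3 (next 30.4) and 30.8 in group 2b replicate 1 (next 4.22). HDC was also high in group 1 replicate 2, at 10.3 (next 2.83). In group 2b replicate 2, CPA3 was at 14.4 (next 3.18) and HDC at 0.958 (all others at 0), the latter being a single read. HPGDS was at 161 in group 2a replicate 4 (next 28.1). The 28 sets share samples and genes and are not independent.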

How the results depend on the processing

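The number of mast cell genes called was 0 under every alternative between groups 2a and 1 and between groups 3 and 2b. Between groups 2b and 2a it went from 0 to 1 with all genes that had a read and with all 4 groups in 1 fit, where FCER1A had adjusted p of 0.0464 and 0.0275, and ranged from 0 to 1 when 1 sample was left out. Between groups 3 and 1 it went from 1 to 3 with DESeq2, which added CPA3 (adjusted p = 0.0253) and HPGDS (0.0271), went to 0 with DV200 as a covariate, and ranged from 1 to 2 when 1 sample was left out.

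Of 258 recomputed log2 fold changes of these genes, 235 kept their sign and side of the threshold and 15 changed sign, none of them in the comparison in which FCER1A was called except those of KIT, which was not called. FCER1A between groups 2a and 1, at 0.54, became -0.89, -0.92 and -0.69 with limma at pseudocounts of 1, 0.5 and 5, -0.82 with the replicate block, and ranged from -0.71 to 0.96 when 1 sample was left out. HPGDS ranged from -1.53 to 0.61 there. Between groups 3 and 2b, limma at pseudocounts of 1 and 0.5 gave 0.023 and 0.048 for FCER1A and 0.034 and 0.16 for HPGDS, and FCER1A ranged from -0.75 to 0.041 when 1 sample was left out. KIT between groups 3 and 1 became 0.17, 0.19 and 0.070 with limma at 1, 0.5 and 5 and 0.30 with the replicate block. With DV200 as a covariate KIT became -2.72 and HPGDS went from -2.03 to -3.28 in that comparison, and CPA3 went from -1.05 to -3.77 between groups 2a and 1 (edgeR adjusted p of 0.323, 0.143 and 0.658). The cause was not tested.

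Same-numbered samples did not deviate together (correlations from -0.304 to 0.153, with 1 of 5 numbers over 0.1 in each comparison), so numbers were not taken as pairs. With the replicate block 0, 0, 0 and 1 of the mast cell genes were called in the 4 comparisons, as without it, and all genes called went from 44, 5, 1102 and 955 to 0, 1, 934 and 772.

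Over all genes, the 44 called between groups 2a and 1 became 262 with DESeq2, 184 with all 4 groups, 77 with 10 counts in every sample, 75 with limma at a pseudocount of 5 and 0 with DV200. The 5 between groups 3 and 2b became 44 with DESeq2, 3 with all genes that had a read, 2 with all 4 groups or with DV200, and 0 with only pooled or only single-dog samples. The 1102 between groups 2b and 2a became 670 with 10 counts in every sample and 111 with only single-dog samples, and the 955 between groups 3 and 1 became 62 with DV200. When 1 sample was left out, all genes called ranged from 0 to 78 between groups 2a and 1, from 0 to 50 between groups 3 and 2b, from 918 to 1190 between groups 2b and 2a and from 580 to 1027 between groups 3 and 1, where it was 580 without group 3 replicate 4 and 632 without group 1 replicate 5. Between groups 2a and 1 it was 31 and 78 without replicates 1 and 4 of group 1, 26 without group 2a replicate 1 and 0 without each of the other samples in turn, and the 50 between groups 3 and 2b came without group 3 replicate 3. The 1 related pair, CPA3 and HDC, was held under each pseudocount and scaling. Depth limits HDC, GATA2 and CPA3 most, whose values were mostly within a few reads.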

Other observations

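CMA1, the mast cell chymase and 1 of the listed granule genes, was looked up singly after its values had been seen. CMA1 did not follow the group order of CPA3 and MS4A2. It had its highest mean in group 3, at 33.1 ± 29.6 (SD, n = 5) normalized counts, against 14.1 ± 8.56 in group 1, 13.3 ± 18.2 in group 2a and 17.5 ± 15.1 (n = 6) in group 2b. The highest sample was group 3 replicate 4 at 82.6, and the groups overlapped, with group 1 between 5.47 and 27.2. Between groups 3 and 1 the edgeR log2 fold change of CMA1 was 1.22 (SE 0.632, adjusted p = 0.219), so it was not called. Over the 21 samples, with group means removed, CMA1 had r = -0.63 with KIT and 0.54 with HDC (permutation test, adjusted p = 0.0621 for both). It had r = 0.48 with MS4A2 and 0.47 with CPA3 (permutation test, adjusted p = 0.15 for both). Without the 2 samples farthest from the median, r was -0.44 for KIT, 0.34 for HDC, 0.45 for MS4A2 and 0.26 for CPA3.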
